A study of Mus musculus with 24 samples.

Results

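The comparison described here sets Gpr39 knockout (KO) mpkCCD cells against wild-type (WT) cells, both given vehicle. It rests on 12 of the 24 RNA sequencing libraries of the study, 6 KO and 6 WT, which were taken by genotype and treatment as labelled. mpkCCD is a mouse epithelial cell line of the kidney cortical collecting duct. The WT cells are labelled only as being without transformation. Both genotypes were grown on permeable inserts without the vasopressin analogue dDAVP for 9 days, held in a simple medium for 24 h, and then exposed on the basolateral side for 2 h. The vehicle was 0.1% DMSO with 10 µM ZnCl2, so the 12 vehicle libraries all carry added zinc. The other 12 libraries, again 6 of each genotype, received the GPR39 agonist cpd1324 at 1 µM with the same zinc. The labels give neither the edited part of Gpr39 nor the number of KO clones, so the genotype and the clone history of the KO cells cannot be told apart. Nor do they say whether the 6 libraries of a group came from separate cultures, so the p-values measure the spread between these libraries, which may be technical.

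GPR39 is a G protein-coupled receptor that extracellular zinc activates. Principal cells of the collecting duct reabsorb water through aquaporin 2 (AQP2), which vasopressin moves to the apical membrane through its V2 receptor, cyclic AMP and protein kinase A. They reabsorb sodium through the epithelial sodium channel ENaC under the control of aldosterone, while intercalated cells secrete acid or base.

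Levels are given in scaled units, the deposited length-normalised values multiplied by a constant so that an average library sums to 1000000. Because they are divided by gene length they can be compared between genes. Each level is a mean ± SD over 6 libraries unless a range is given. Log2 fold changes are KO minus WT on the log2(scaled units + 0.5) scale with their standard error, and understate the change of low genes. A gene was called when its Benjamini-Hochberg adjusted p in limma was below 0.05.

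The 12 libraries held 30.4 to 51.9 M reads recovered from the deposited values. KO library 6 stood apart from the other KO libraries. The first principal component (62.5% of the variance) separated the genotypes, and on the second (15.7%) KO library 6 lay at 33.9 against -8.22 to 2.44 for the other 11. In 3632 of the 11557 tested rows it was an outlier within its group by Dixon's criterion, against 20 to 115 rows for any other vehicle library. Rps26, a ribosomal protein gene, was at 5366 scaled units there and averaged 2263 in KO libraries 1 to 5, whereas the mitochondrial leucyl-tRNA synthetase gene Lars2 was at 36.4 against 200.1. Results are therefore given with this library and, where it matters, without it.

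The cell type label was checked on marker lists. The principal cell genes measured (16 of 22) summed to 1069 to 1426 scaled units in WT libraries and 1281 to 1407 in KO libraries. Of 22 mesenchymal markers, 6 were measured and 4 of these tested. The 6 measured summed to 24.3 to 58.7 in WT and 30.4 to 34.2 in KO libraries. Only 2 of 16 endothelial and immune markers were tested, and Pecam1, Cdh5 and Ptprc were not analysed here. The intercalated cell markers measured (9 of 18) summed to 320.0 to 434.1 in WT and 548.0 to 572.3 in KO libraries. The mean of Car2 alone was 221 and 440.2, while 2 of the 7 tested markers rose and 3 fell. Their part in other results was not tested. In such bulk samples, fewer cells of a type and less RNA per cell cannot be told apart.

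Gpr39 itself was lower in every KO library. It ranged from 20.3 to 24.5 scaled units in the WT libraries (median 20.9) and from 8.52 to 10.4 in the KO libraries (median 9.25). The groups did not overlap, and the KO mean was 43.4% of the WT mean (log2 fold change -1.16 ± 0.06, limma adjusted p = 3.37e-14). Transcript of the targeted gene was therefore reduced but still read in all 6 KO libraries, and whether these reads cover the edited part could not be read from per-gene values.

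KO and WT cells differed in many genes, most of them by little. Of the 11557 tested rows 5525 were called (47.8%), with 2762 higher in KO cells (23.9%) and 2763 lower (23.9%). The median absolute log2 fold change of called rows was 0.30, and 83.5% of them differed by less than 1.5-fold. At least 2-fold differences were called in 303 rows (2.62%), 153 higher and 150 lower. The 6 KO and 6 WT values did not overlap in 3156 rows (27.3%). Without KO library 6, 6065 rows were called (52.5%), and 5134 were called with and without it in the same direction.

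**Figure D1:**
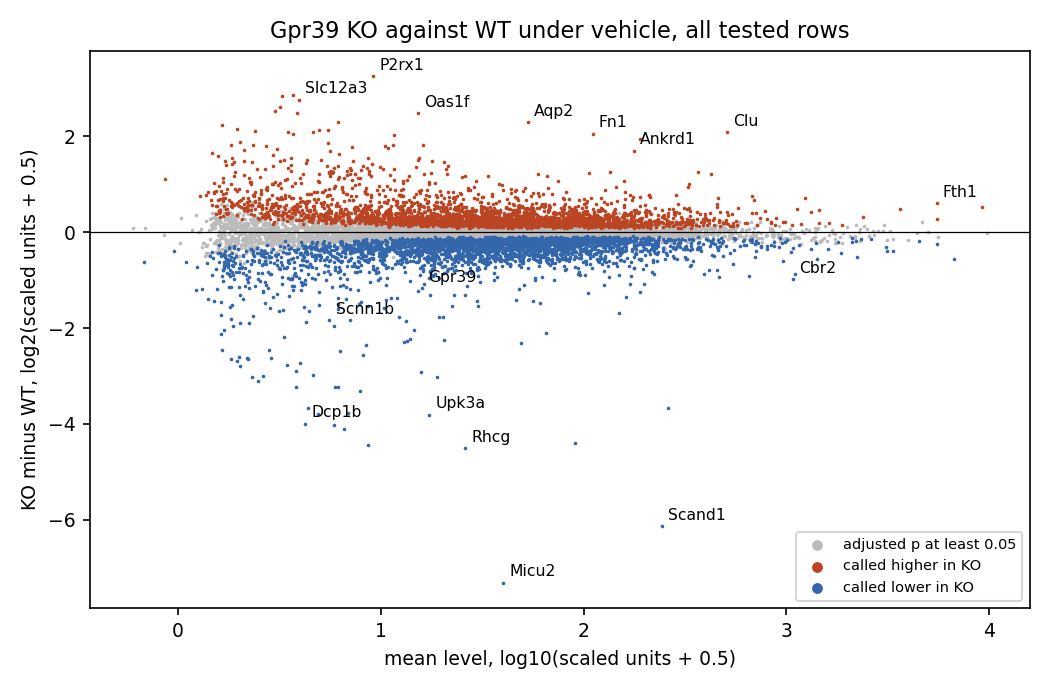
Each point is 1 of the 11557 tested rows, with the mean level over the 12 vehicle libraries on a log10 axis and the KO minus WT difference on a log2 axis. Red points were called higher in KO cells and blue points lower; the largest differences on this scale were reductions, down to Micu2 and Scand1, and the fitted value of Micu2 depends on the pseudocount because it had no reads in KO libraries.

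Several genes were lost or nearly lost in KO cells. Micu2, which encodes a gatekeeper of the mitochondrial calcium uniporter, was at 70.6 to 88.2 scaled units in the WT libraries, from 1699 to 2446 reads each. It had no read in any KO library. Against a floor of 3 reads over the KO group, it was at least 4647-fold lower. Dcp1b, a cofactor of mRNA decapping, was at 7.48 ± 0.570 in WT cells and also without reads in all 6 KO libraries, at least 336-fold lower. The same held for Parp11, an ADP-ribosyltransferase (2.64 ± 0.380 in WT, at least 111-fold lower), and for Pou4f1, a POU-domain transcription factor (3.05 ± 0.790, at least 44.8-fold lower). Of the 6 rows without any KO read the other two share the name Vangl2. No row was without reads in all WT libraries.

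Scand1, a SCAN-domain protein gene, was among the more abundant transcripts of WT cells at 442 to 516 scaled units. In KO cells it lay between 5.18 and 7.14 (-6.14 ± 0.09, limma adjusted p = 8.28e-26). Its neighbour Cnbd2 in the RefSeq gene table (GRCm38.p6) fell with it, from 33.0 ± 3.28 to 3.64 ± 0.667, while the flanking genes Phf20 and Epb41l1 differed by -0.12 ± 0.04 and 0.22 ± 0.05 on the log2 scale. The call of Phf20 was lost with the same total in every library (limma adjusted p = 0.0744) and with voom (adjusted p = 0.0508). A second run of neighbours, Sipa1l2, Ntpcr and Map3k21 on chromosome 8, fell together. Sipa1l2 went from 3.93 to 0.0156, Ntpcr from 10.3 to 0.654 and Map3k21, a MAP3 kinase, from 27.3 to 3.16 scaled units. On either side Tsnax differed by 0.39 ± 0.06 and Kcnk1 by -0.21 ± 0.04. These neighbours were chosen after their values were seen.

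Rhcg, the ammonia transporter of distal nephron epithelia, was at 43.0 to 57.3 scaled units in WT and 1.43 to 2.12 in KO libraries (-4.50 ± 0.09). Upk3a, a uroplakin of the urothelial membrane, fell from 31.9 ± 9.11 to 1.75 ± 0.266 (-3.81 ± 0.18). Cdh2, which encodes N-cadherin, went from 12.4 ± 4.21 to 0.405 ± 0.143. Tgm2, the tissue transglutaminase, went from 7.60 ± 1.60 to 0.130 ± 0.0590. In each of these genes every KO library was below every WT library, which the naming rule required of them. Others among the 15 largest reductions by the naming rule were Limch1, Asb4, Trim35, Lypd6b, Tspan15, Shisa7 and Ugt8a, with log2 fold changes from -4.44 for Limch1 to -3.22 for Shisa7 and Ugt8a.

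P2rx1, an ATP-gated cation channel gene, had the highest log2 fold change on the scale with the pseudocount, which lowers the fold of genes with less signal in WT cells. Its WT libraries lay between 0.730 and 1.59 scaled units (median 1.24) and its KO libraries between 9.42 and 21.0 (median 16.0), with KO library 6 lowest (3.26 ± 0.17, limma adjusted p = 8.35e-14). Clu, which encodes the secreted chaperone clusterin, rose at a much higher level, from 169 to 224 scaled units in WT libraries to 729 to 935 in KO libraries (2.09 ± 0.10). Fn1, encoding fibronectin, rose from 42.7 ± 12.4 to 178 ± 43.9. Oas1f, of the 2'-5' oligoadenylate synthetase family, rose from 4.12 ± 0.852 to 25.4 ± 4.23. Of the other top increases, Csn3, Ppfibp2, Cyp2f2, Cyp4b1, Fggy, Pmp22, Wfdc1, Anpep and Galnt7 had WT means between 0.301 (Ppfibp2) and 4.13 (Galnt7).

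Among called genes whose WT and KO libraries did not overlap, the largest differences by absolute amount were in Fth1, the ferritin heavy chain (4356 ± 396 to 6663 ± 648 scaled units), and the translation elongation factor gene Eef2 (6002 ± 132 to 5060 ± 546). The carbonyl reductase gene Cbr2 fell from 1439 ± 300 to 719 ± 86.5 and Camk2b, a calcium/calmodulin kinase, from 1423 ± 113 to 773 ± 38.8. Ctsd, encoding lysosomal cathepsin D, rose from 1215 ± 86.4 to 1687 ± 163. Cpe, Rps27, Tceal9, Clu and Scand1 completed the 10 non-overlapping genes of the naming rule. Some called genes with overlapping libraries, such as the metallothionein gene Mt1, differed by more.

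Water and sodium transport genes of principal cells moved in both directions. Of the 16 tested members of that list 4 rose and 5 fell (56.2% called, beside 47.8% of all rows), with a median log2 fold change of 0.03. Aqp2 was at 11.9 to 22.6 scaled units in WT libraries (median 18.7) and at 59.9 to 107 in KO libraries (median 92.2). The groups did not overlap, and KO library 6 was the lowest KO value (2.29 ± 0.17, limma adjusted p = 4.62e-11; 2.40 without that library). Hsd11b2, the enzyme that protects the mineralocorticoid receptor from glucocorticoids, rose from 78.4 ± 16.4 to 299 ± 36.2 (1.94 ± 0.12). Kcne1, a potassium channel subunit, rose from 0.398 ± 0.204 to 4.96 ± 1.18.

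Several ENaC and aldosterone genes were lower. Scnn1b, the beta subunit of ENaC, lay between 6.65 and 9.65 scaled units in WT and between 1.51 and 2.24 in KO libraries (-1.83 ± 0.13). The alpha subunit gene Scnn1a changed less, from 376 ± 26.4 to 293 ± 32.5 (-0.36 ± 0.07). For the gamma subunit gene Scnn1g the values were 33.4 and 35.5, which did not pass the test (adjusted p = 0.725). Sgk1, the aldosterone-induced kinase that retains ENaC at the membrane, fell from 267 ± 48.2 to 112 ± 12.9 (-1.24 ± 0.11), and Nr3c2, the mineralocorticoid receptor, from 5.14 to 2.59 (-0.87 ± 0.10). Avpr2, the V2 vasopressin receptor, was at 105 ± 14.5 in WT and 123 ± 21.4 in KO cells (adjusted p = 0.175), but it was called without KO library 6 (0.33, adjusted p = 0.0136). Aqp3, a basolateral water channel, was at 6.18 and 7.05 (adjusted p = 0.372).

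**Figure D2:**
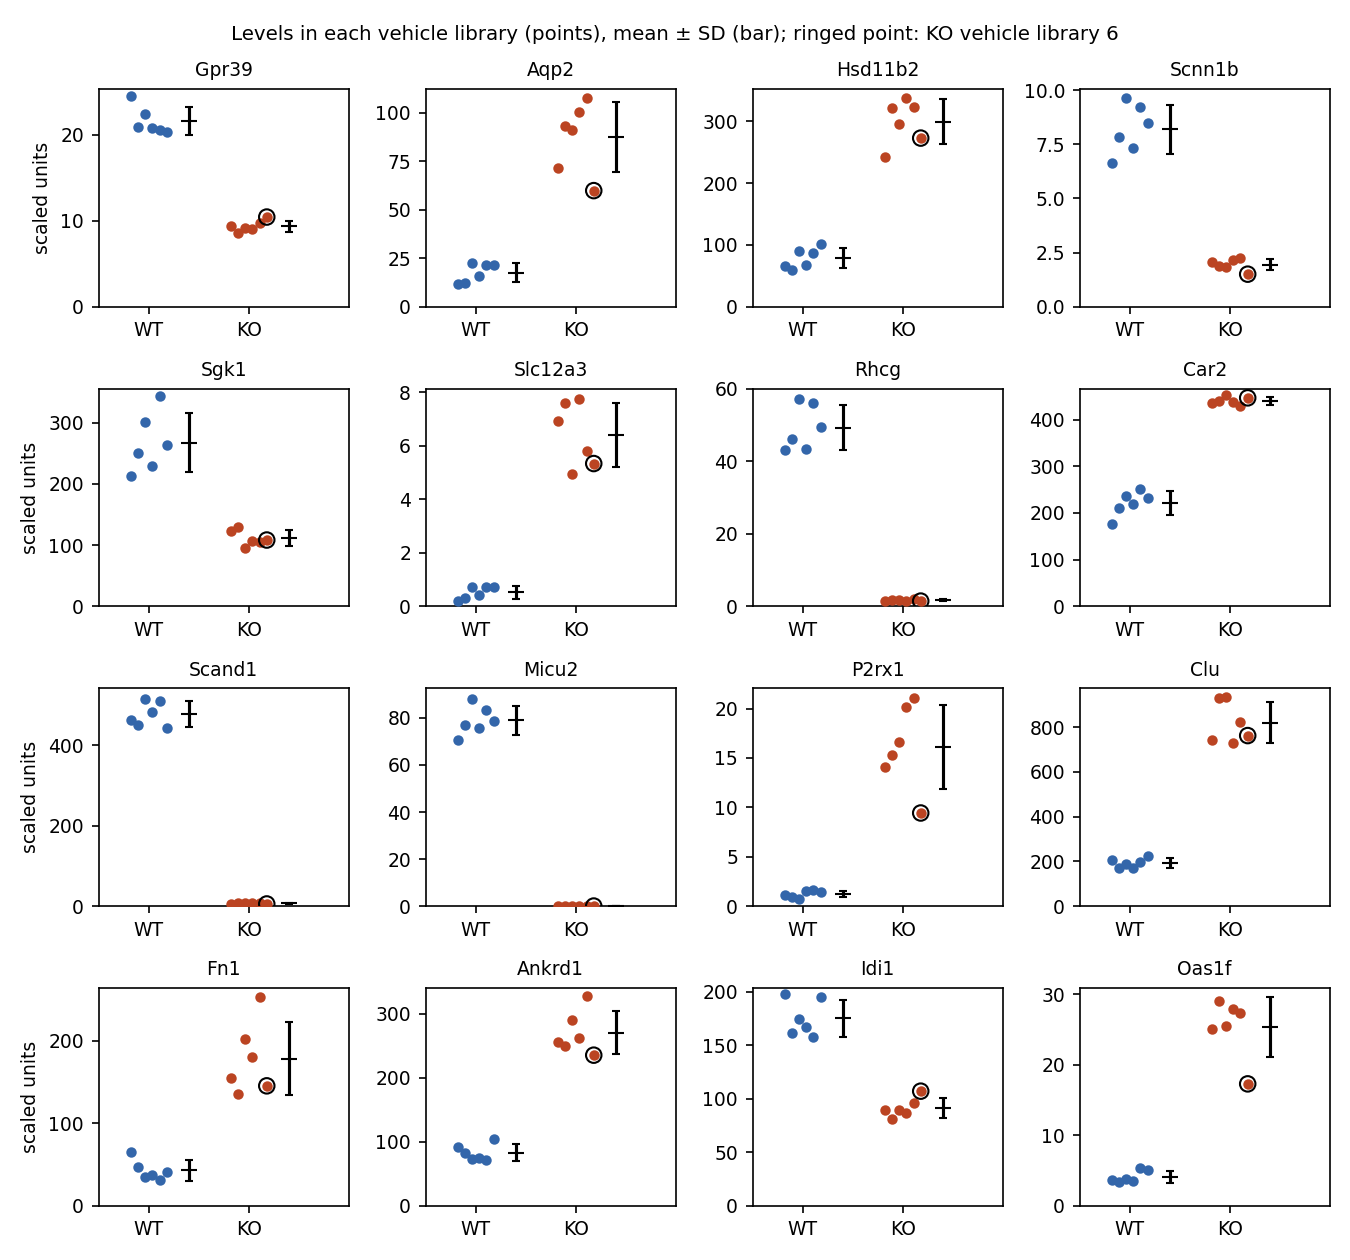
Each panel shows the scaled units of 1 gene in the 6 WT (blue) and 6 KO (red) vehicle libraries, with mean ± SD beside them and KO library 6 ringed. The 2 groups do not overlap in any of the 16 genes drawn, which were picked for display from the genes described in the text. For many of them, such as Micu2, Scand1 and P2rx1, the naming rule required this, and 27.3% of all tested rows did not overlap. Aqp2 and P2rx1 have their lowest KO value in library 6.

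Markers of other nephron cell types also split. Among 7 intercalated cell genes, 2 rose and 3 fell (71.4% called, beside 47.8% of all rows). Car2, a cytosolic carbonic anhydrase, rose from 221 ± 26.1 to 440.2 ± 8.31 scaled units and Aqp6 from 27.7 ± 4.13 to 51.4 ± 4.37, while Rhcg fell as above and the proton pump subunit gene Atp6v0a4 fell from 14.6 ± 2.12 to 9.77 ± 0.493. Of 8 thick limb and distal tubule genes 4 rose and 2 fell (75% called). Slc12a3, the thiazide-sensitive sodium chloride cotransporter, was at 0.200 to 0.740 in WT and 4.95 to 7.75 in KO libraries (2.77 ± 0.15). Stk39, the kinase that phosphorylates it, rose from 0.408 ± 0.246 to 4.62 ± 0.749, whereas the upstream kinases Wnk1 (-0.32 ± 0.09) and Wnk4 (-0.22 ± 0.08) fell. The call of Wnk4 was lost when any of 6 vehicle libraries was left out (WT libraries 2, 3 and 5 and KO libraries 1, 3 and 5; -0.21 to -0.20). Of the 3 proximal tubule genes tested, Ass1 fell from 231 ± 16.1 to 90.3 ± 5.76 and the megalin gene Lrp2 from 8.94 ± 1.12 to 5.69 ± 0.770.

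Transcription factors of kidney and ureteric bud epithelium were called in 12 of 25 (48.0%, near the 47.8% of all rows), 5 higher and 7 lower. Foxj1, the regulator of motile cilia, fell from 22.0 ± 6.10 to 4.01 ± 0.348 scaled units. Gata2 rose from 4.50 ± 0.605 to 9.41 ± 1.01 and Esrrb from 346 ± 22.1 to 449 ± 19.5. Of 7 HOX genes (71.4% called) 2 rose, among them Hoxa7 (18.4 ± 1.94 to 39.7 ± 7.45), and 3 fell, among them Hoxb13 (20.0 ± 0.481 to 13.8 ± 1.78).

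Around the receptor, G protein subunits and their regulators were called in 8 of 26 (30.8%, beside 47.8% of all rows). Rgs2, which shortens Gq signalling, fell from 8.62 ± 1.81 to 2.75 ± 0.696 and the receptor kinase gene Grk5 rose from 3.55 ± 0.456 to 7.40 ± 0.411. Other G protein-coupled receptor genes were called in 12 of 21 (57.1%), 7 higher and 5 lower. F2r, the thrombin receptor, rose from 98.3 ± 7.01 to 152 ± 13.3, and the orphan receptor gene Gprc5a fell from 506 ± 60.3 to 276 ± 13.0. Of 20 cyclic AMP genes 5 rose and 4 fell (45% called). The phosphodiesterase genes went in opposite directions, Pde4d from 3.94 to 6.02 and Pde7a from 60.7 to 38.6, and Adcy6, an adenylyl cyclase, fell by 0.31 on the log2 scale.

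Zinc genes, measured with zinc present in all libraries, rose in 5 and fell in 2 of 18 (38.9% called, beside 47.8% of all rows). The metallothioneins Mt1 (7559 ± 1044 to 10906 ± 2130) and Mt2 (3040 ± 543 to 4199 ± 445) were among the highest transcripts, and their WT and KO libraries overlapped. The zinc exporter gene Slc30a4 rose from 53.9 ± 2.82 to 79.9 ± 4.56 and the importer gene Slc39a8 fell from 2.46 ± 0.479 to 0.952 ± 0.331. Mtf1, the zinc-sensing factor that drives metallothioneins, was at 5.11 and 5.49 (adjusted p = 0.367).

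The vesicle machinery that moves AQP2 was called in 19 of 39 (48.7%, beside 47.8% of all rows), 9 higher and 10 lower, with a median of -0.01. Differences were modest. The secretory GTPase gene Rab27b rose from 12.8 ± 0.414 to 19.9 ± 2.58 and the retromer gene Vps35 from 211 ± 6.78 to 255 ± 7.91. Rab3d fell from 89.6 ± 5.32 to 64.7 ± 3.87 and the clathrin adaptor gene Ap2b1 from 208 ± 8.39 to 175 ± 7.94. Of 46 actin cytoskeleton genes 6 rose and 10 fell (34.8% called). Lcp1, the actin bundler L-plastin, fell from 8.38 ± 1.28 to 3.63 ± 0.338 and the formin gene Diaph3 rose from 43.1 ± 6.68 to 59.3 ± 3.90.

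Interferon-stimulated genes rose in 9 and fell in 2 of 31 (35.5% called, beside 47.8% of all rows), with a median log2 fold change of 0.24 beside 3.72e-04 for all rows. Type I interferon acts through transcription factors that bind the interferon-stimulated response element. The promoter windows of 6 members are shown because the same element stood beside genes that rose, fell and did not pass the test. They are RefSeq sequences (GRCm38.p6), 5′ to 3′ on the strand of the gene, with the searched motif in capitals. The motif was 2 GAAA half-sites with any 2 bases between them, or on the other strand 2 TTTC half-sites, and overlapping matches run together.
Oas3, chr5:120777700-120777759, minus strand: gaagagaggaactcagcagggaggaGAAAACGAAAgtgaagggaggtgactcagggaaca
Ddx60, chr8:61928009-61928068, plus strand: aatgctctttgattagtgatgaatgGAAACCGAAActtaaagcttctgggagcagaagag
Rsad2, chr12:26456538-26456597, minus strand: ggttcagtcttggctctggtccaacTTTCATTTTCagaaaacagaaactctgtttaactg
Isg15, chr4:156200862-156200921, minus strand: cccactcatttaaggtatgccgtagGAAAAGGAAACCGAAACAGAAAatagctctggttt
Ifit1, chr19:34640760-34640819, plus strand: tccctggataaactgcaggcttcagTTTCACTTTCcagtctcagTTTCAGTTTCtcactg
Stat2, chr10:128270251-128270310, plus strand: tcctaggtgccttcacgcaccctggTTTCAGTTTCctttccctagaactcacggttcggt

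The motif was present in 3.44% of 32851 promoter windows of 300 bases (250 before and 50 after the start). Counted by gene, it was in 3.99% of the 27025 genes with a window. Of 31 tested interferon genes 23 had a window and 13 of these held it. It was in 4 of 8 genes that rose, in the only one that fell and had a window, and in 8 of 14 that were not called. Oas3 rose from 1.27 to 4.90 scaled units (1.54 ± 0.24), Ddx60 from 4.56 ± 1.55 to 8.88 ± 1.10 and Rsad2 from 4.10 to 6.99 (0.61 ± 0.23). The call of Rsad2 was lost without WT library 2 or 3 or KO library 1, 2 or 4 (0.46 to 0.58) and in a fit of the vehicle libraries alone. Isg15 was at 58.4 and 55.5 (adjusted p = 0.551) and Ifit1 at 25.7 and 28.9 (adjusted p = 0.667), while Stat2 fell from 26.5 to 18.8 (-0.49 ± 0.09).

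Among members without a printed window, Oasl1 rose from 7.26 ± 0.803 to 22.7 ± 5.35 scaled units. Psmb9, a subunit of the immunoproteasome, rose from 7.81 ± 1.03 to 16.9 ± 4.01, and Tap1, which carries peptides to MHC class I, from 11.3 ± 1.10 to 18.0 ± 2.89. Of 8 antigen presentation genes, which include these, 3 rose and 2 fell (62.5% called, beside 47.8% of all rows). Without KO library 6, 5 rose and 2 fell, beside 52.5% of all rows called. Chemokine, cytokine and NF-kB genes rose in 3 and fell in 8 of 23 (47.8% called, the same share as among all rows). Cxcl1, a neutrophil chemokine, fell from 8.82 ± 2.23 to 3.70 ± 0.898 and Nfkbia, the NF-kB inhibitor, from 228 ± 27.3 to 155 ± 8.50, whereas the alarmin gene Il33 rose from 0.617 ± 0.238 to 2.21 ± 0.713.

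**Figure D3:**
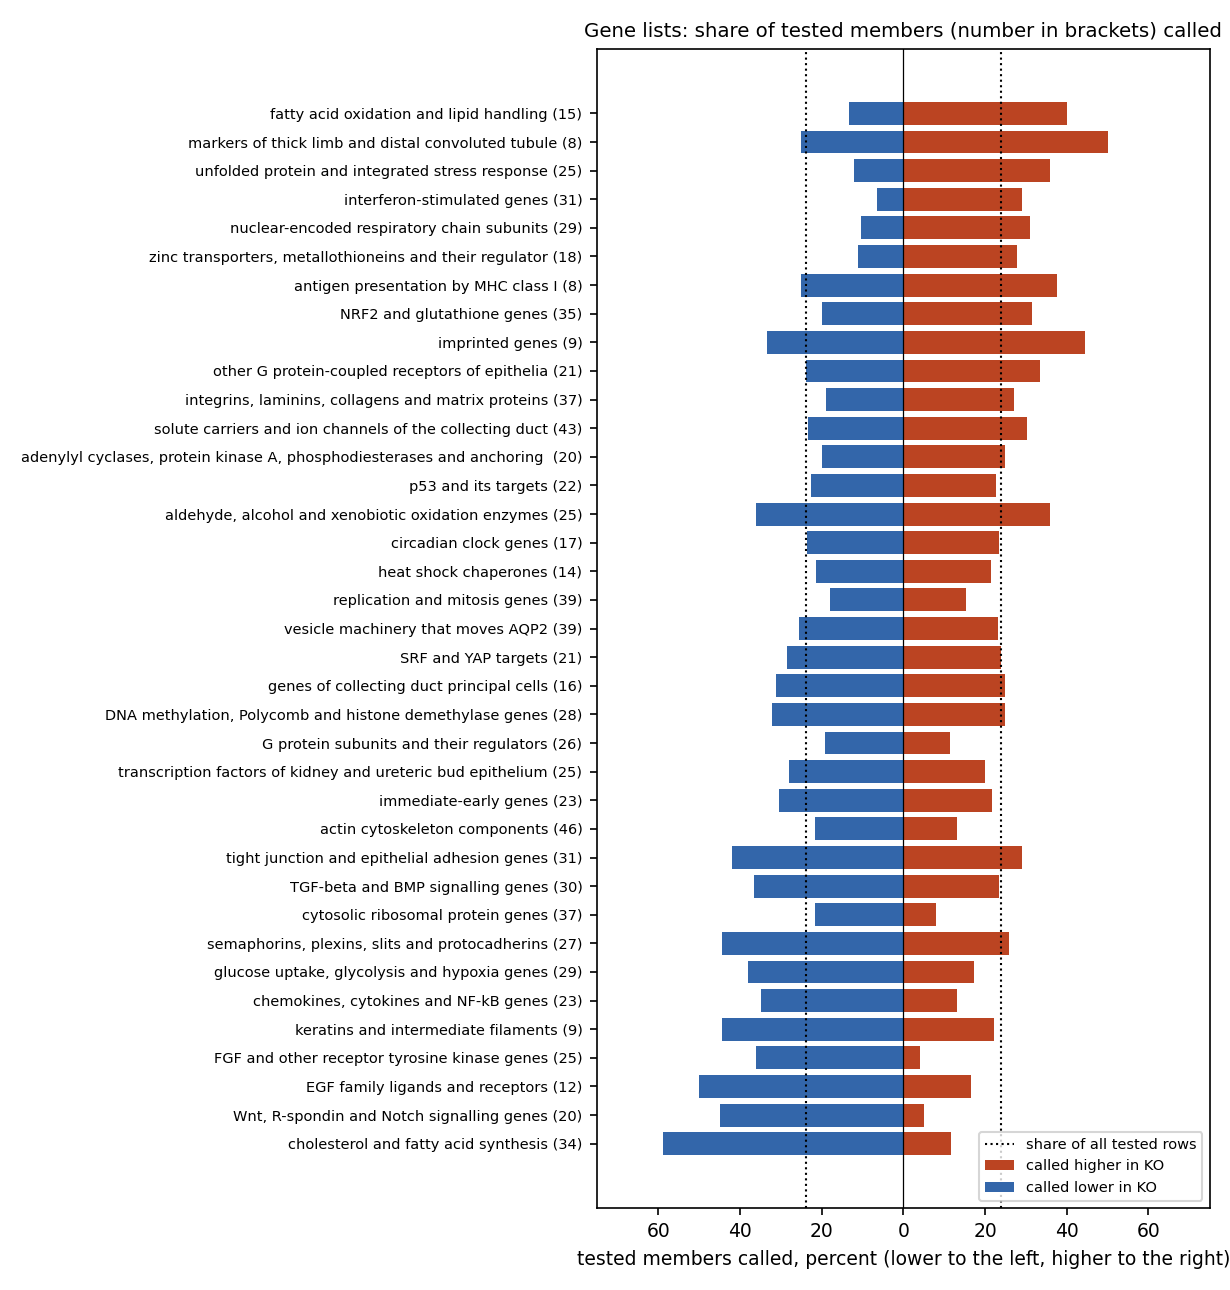
Bars give the percent of tested members of each list (number tested in brackets, lists with at least 8) that were called higher (red, right) or lower (blue, left) in KO cells. Dotted lines mark the 23.9% of all tested rows called in each direction; the cholesterol and fatty acid synthesis list reaches farthest to the left, with 20 of 34 members lower.

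Sterol synthesis genes were mostly lower in KO cells. Of 34 tested cholesterol and fatty acid synthesis genes 20 fell and 4 rose (70.6% called, beside 47.8% of all rows), with a median log2 fold change of -0.25. The counts were the same without KO library 6, beside 52.5% of all rows called. Idi1, an isomerase of isoprenoid synthesis, lay between 157 and 198 scaled units in WT and between 80.7 and 107 in KO libraries (-0.94 ± 0.10, limma adjusted p = 2.56e-08). The groups did not overlap. Srebf2, the transcription factor that drives the pathway, fell from 329 ± 18.4 to 225 ± 8.41. The 4 genes that rose were the desaturase genes Fads1 and Scd2, the fatty acid factor gene Srebf1 and the elongase gene Elovl5 (39.1 ± 2.97 to 50.7 ± 3.96).

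The sterol regulatory element TCACNCCAC, read on both strands (reverse GTGGNGTGA), was in 1.24% of all promoter windows. Counted by gene, it was in 1.44% of all genes with a window. Of 24 pathway members with a window it was found in 1, that of Hmgcs1, the synthase of the mevalonate pathway. Hmgcs1 fell from 308 to 243 scaled units (-0.34 ± 0.07). Its window is printed as the only match, with the element in capitals.
Hmgcs1, chr13:119690189-119690247, plus strand: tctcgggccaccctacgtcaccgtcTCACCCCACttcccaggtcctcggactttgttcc

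Growth factor and patterning lists are given beside the 47.8% of all rows called and the 23.9% called lower. EGF family genes fell in 6 and rose in 2 of 12 (66.7% called), with Erbb3 from 182 ± 10.9 to 121 ± 3.04 scaled units and its ligand gene Nrg1 from 8.76 ± 0.804 to 15.3 ± 1.92. FGF and other receptor tyrosine kinase genes fell in 9 and rose in 1 of 25 (40.0% called), among them Efnb2, an ephrin ligand, from 160.1 ± 17.0 to 91.1 ± 5.48. Wnt, R-spondin and Notch genes fell in 9 and rose in 1 of 20 (50% called), with a median of -0.22. Jag1, a Notch ligand, fell from 21.8 ± 1.35 to 14.3 ± 0.662. TGF-beta and BMP genes fell in 11 and rose in 7 of 30. Of the BMP-responsive Id genes named by the rule, Id2 rose from 222 ± 15.3 to 433 ± 65.1. Id1 fell from 22.5 ± 3.22 to 12.0 ± 2.17 and Id3 from 18.4 ± 3.94 to 5.16 ± 1.60. Semaphorin, plexin, slit and protocadherin genes fell in 12 and rose in 7 of 27.

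Tight junction and adhesion genes were called in 22 of 31 (71.0%, beside 47.8% of all rows), 13 lower and 9 higher. Tjp3, which encodes the scaffold ZO-3, fell from 143 ± 8.48 to 93.6 ± 4.69 scaled units and Cdh3, encoding P-cadherin, rose from 91.0 ± 4.24 to 150.4 ± 13.5. Of 9 keratin and intermediate filament genes 4 fell and 2 rose (66.7% called), including Krt20 (611 ± 72.4 to 318 ± 34.3). Matrix and integrin genes rose in 10 and fell in 7 of 37 (45.9% called), with the basement membrane collagen gene Col4a4 going from 32.0 ± 2.53 to 58.4 ± 3.80. SRF and YAP targets rose in 5 and fell in 6 of 21 (52.4% called). Ankrd1, a YAP target, lay between 71.8 and 105 in WT and between 235 and 328 in KO libraries (1.70 ± 0.11), and Ccn1 rose from 501 ± 58.9 to 851 ± 103. Immediate-early genes rose in 5 and fell in 7 of 23 (52.2% called), Nr4a3 from 2.87 ± 0.778 to 7.47 ± 0.838 and Klf2 from 23.6 ± 6.43 to 12.5 ± 1.74.

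In metabolism, glycolysis and hypoxia genes fell in 11 and rose in 5 of 29 (55.2% called, beside 47.8% of all rows). Tpi1, a glycolytic isomerase, was among those that fell (1155 ± 65.1 to 768 ± 119 scaled units). Respiratory chain subunit genes rose in 9 and fell in 3 of 29 (41.4% called). Without KO library 6 they rose in 18 and fell in 3, beside 52.5% of all rows called. Ndufs8, of complex I, rose from 136 ± 5.51 to 181 ± 8.80, and Uqcrfs1, of complex III, fell from 204 ± 7.46 to 131 ± 32.2, with KO library 6 lowest. NRF2 and glutathione genes rose in 11 and fell in 7 of 35 (51.4% called). The transferases Gstt1 (90.4 ± 16.7 to 165 ± 8.12) and Mgst1 (32.8 ± 5.55 to 10.9 ± 1.33) went opposite ways. Aldehyde, alcohol and xenobiotic oxidation genes were called in 18 of 25 (72.0%), 9 in each direction. Aldh2, the mitochondrial aldehyde dehydrogenase, fell from 22.3 ± 1.54 to 4.51 ± 1.36, and Tiparp, an aryl hydrocarbon receptor target, rose from 79.4 ± 6.72 to 190.4 ± 21.4.

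Unfolded protein and integrated stress response genes rose in 9 and fell in 3 of 25 (48% called, beside 47.8% of all rows). Without KO library 6 they rose in 13 and fell in 3, beside 52.5% of all rows called. Ppp1r15a, the phosphatase subunit that ends the integrated stress response, rose from 113 ± 7.61 to 179 ± 16.5 scaled units and Atf6, an endoplasmic reticulum stress sensor, from 46.4 ± 1.46 to 65.7 ± 4.63. Gdf15, a stress-induced hormone, rose from 123 ± 13.9 to 213 ± 38.6. Replication and mitosis genes were called in 13 of 39 (33.3%), 6 higher and 7 lower, and cytosolic ribosomal protein genes in 11 of 37 (29.7%), 3 higher and 8 lower, beside 47.8% of all rows. For p53 targets the split was 5 higher and 5 lower of 22 (45.5% called), and for circadian clock genes 4 and 4 of 17 (47.1%). Fatty acid oxidation genes rose in 6 and fell in 2 of 15 (53.3%). Heat shock chaperones rose in 3 and fell in 3 of 14 (42.9%), and imprinted genes rose in 4 and fell in 3 of 9 (77.8%). Collecting duct solute carriers and ion channels rose in 13 and fell in 10 of 43 (53.5%). DNA methylation, Polycomb and histone demethylase genes rose in 7 and fell in 9 of 28 (57.1%). Without KO library 6 they rose in 4 and fell in 8, beside 52.5% of all rows called.

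Differences were also uneven along the genome. On chromosome 6, 376 of 527 tested rows (71.3%) were called lower in KO cells and 38 higher. Among all tested rows, 23.9% were called in each direction. The median log2 fold change of the chromosome 6 rows was -0.33. The 6 KO libraries each had a chromosome 6 median between -0.33 and -0.28, and the median was -0.31 without KO library 6. Chromosome 8 had a median of 0.17 and 349 of 631 rows (55.3%) called higher. The medians of chromosomes 10 and 13 were -0.16 and -0.18, with 52.8% and 48.8% of their rows called lower. Genes named above that lie on chromosome 6 include Gprc5a, Scnn1a, Atp6v0a4, Tpi1, Mgst1 and Dcp1b, and on chromosome 8 Hsd11b2, Slc12a3, Mt1 and Mt2. Others went against the median of their chromosome, among them Gata2 (0.99) and Hoxa7 (1.08) on chromosome 6 and Nr3c2 (-0.87), Klf2 (-0.87), Cpe (-0.92), Efnb2 (-0.81) and Ntpcr (-3.23) on chromosome 8. Subtracting each chromosome's median moved the median of the cholesterol list from -0.25 to -0.22 and that of the Wnt and Notch list from -0.22 to -0.11. The part of these chromosome-wide shifts in the differences of single genes was not tested.

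**Figure D4:**
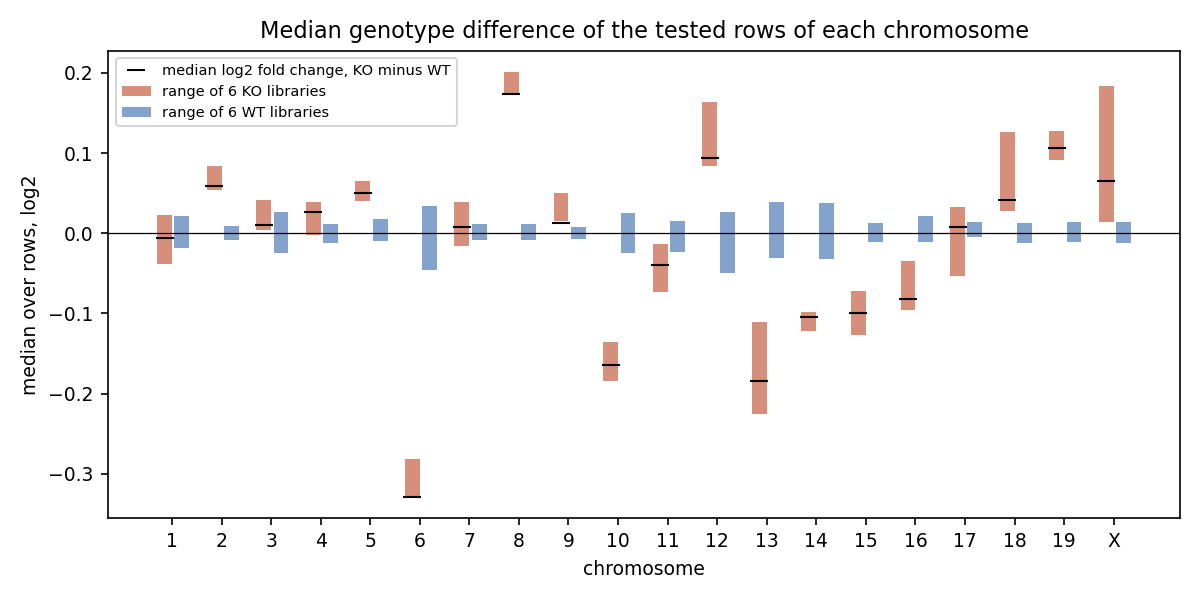
Black marks give the median KO minus WT log2 fold change of the tested rows of each chromosome. Bars give the range of the medians of the 6 KO (red) and 6 WT (blue) libraries. Each KO library was set against the mean of the 6 WT libraries, and each WT library against the mean of the other WT libraries. Chromosome 6 lies lowest at -0.33 and chromosome 8 highest at 0.17, with all 6 KO libraries outside the WT range on both. The KO libraries also lie outside the WT range on many other chromosomes, among them 2, 10, 13, 14 and 19.

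The genotype difference was measured again in the 12 agonist libraries, which share no library with the vehicle comparison. Both comparisons were fitted in the same model with a shared residual variance, so their calls are not from separate tests. Under agonist 7406 rows were called (64.1%), and 8109 when KO library 6 of the vehicle group was left out. Of the 5525 rows called under vehicle, 3426 were called in the same direction under agonist, which is 62.0% of the vehicle calls and 46.3% of the agonist calls, and 652 in the opposite direction. Of the 303 rows with at least 2-fold differences, 274 were called in the same direction and 9 in the opposite one. The difference between both genotype contrasts, tested as an interaction, was called in 4746 rows (41.1%) and in 84 of these 303. With every library brought to the same total it was called in 7545 rows, so its count depends on the scaling.

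Several of the differences described above were called under agonist too. Scand1 differed by -5.99 on the log2 scale there, P2rx1 by 3.01, Slc12a3 by 2.48, Aqp2 by 2.44 and Hsd11b2 by 1.89, and the interaction of these 5 genes did not pass the test (limma adjusted p from 0.290 for Slc12a3 to 0.834 for Hsd11b2). Gpr39 differed by -1.59, more than under vehicle (interaction adjusted p = 1.91e-04). Its WT mean was 21.6 scaled units under vehicle and 29.2 under agonist, and its KO mean 9.37 and 9.40. Csn3, the kappa-casein gene, was higher under vehicle but differed by 0.04 under agonist, and Fn1 by 0.35. Of the 185 genes named by the rule, 151 were called in the same direction under agonist and 16 in the opposite one. These 16 include Ankrd1 (-2.06), Ccn1 (-2.97), Fosl1 (-3.89), Nr4a3 (-1.31), Ppp1r15a (-2.01) and Gdf15 (-1.32), all higher in KO cells under vehicle (Fosl1, an AP-1 transcription factor gene, from 8.63 ± 1.32 to 15.3 ± 2.64). The WT mean of each was higher under agonist than under vehicle. Ankrd1 went from 82.9 under vehicle to 1084 scaled units under agonist in WT cells, and from 270 to 260 in KO cells. Ccn1 went from 501 to 6354 in WT cells and from 851 to 815 in KO cells.

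**Figure D5:**
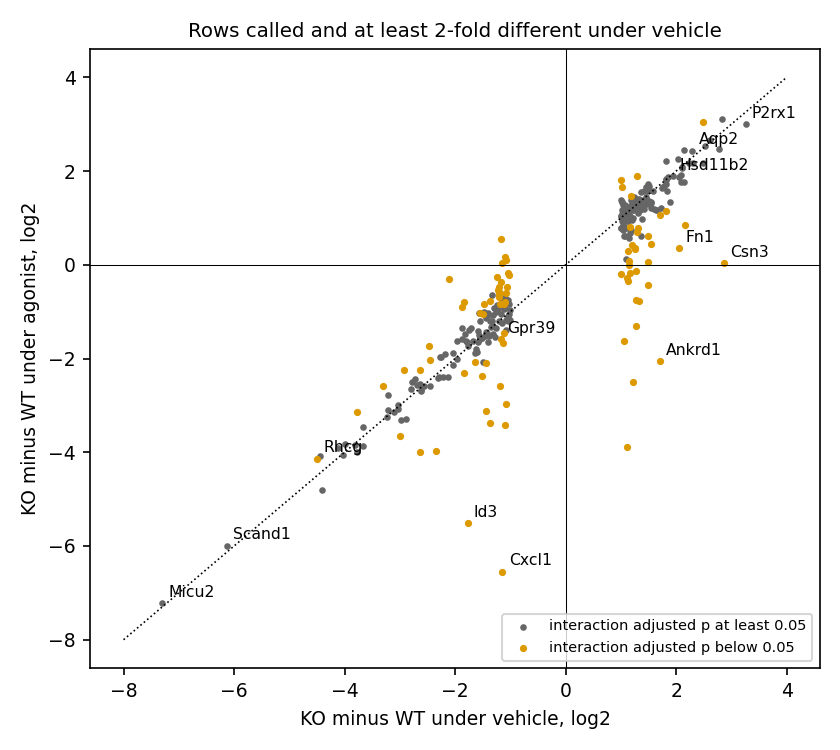
Each point is 1 of the 303 rows called and at least 2-fold different under vehicle, with the KO minus WT log2 difference under vehicle on the horizontal axis and under agonist on the vertical axis. The dotted line marks equal differences and orange points have a called interaction (84 rows); Micu2, Scand1 and Aqp2 lie near the line, and Ankrd1 and Csn3 far below it.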

How the data were processed

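Poly(A) RNA of 24 mpkCCD libraries was sequenced. The deposited table gives per gene a signal that the authors had divided by a library factor and by gene length, as read from its values and header. The tools listed per the submitters' processing notes are DESeq, DESeq2 and STAR (2.7.8a), with the build GRCm39 and no stated roles. Multiplying back by length and factor gave whole reads to within 0.05 for at least 99.8% of values in every library, and totals of 30.4 to 51.9 M reads per vehicle library. Values were multiplied by 92.1, rows with a mean of at least 1 over 24 libraries kept (11557 of 12224), and log2(value + 0.5) fitted in limma 3.58.1 (R 4.3.3) as 1 model of 4 groups with 20 residual degrees of freedom, trend and robust moderation and Benjamini-Hochberg adjustment. edgeR was not used because the deposited unit is not a count; voom on recovered reads was an alternative. The code was tested on simulated data.

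Named genes are Gpr39, Aqp2, the 15 highest and 15 lowest non-overlapping called genes with a level of at least 5 in the higher group, the 10 largest absolute differences under the same conditions, and up to 4 called members of each of 42 lists by adjusted p. Other list members were named after their values were seen, and some genes are not reported here. Members and lists were chosen with earlier results of these data known. Alternatives were other pseudocounts, filters, scalings and moderation, a fit of vehicle libraries alone, a replicate block and leaving out each vehicle library. Rows with shared or joined names (393 and 333) were tested but not named by the rule, and strand use in counting is not given in the sources used here. Intervals for counting error are not given, since the recovered reads carry no molecular identifiers.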

Additional observations from a re-analysis of the deposited data

Results flagged for a closer look

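Among the genes named in the text, single libraries lay far from the rest of their group by Dixon's criterion, which chance meets in about 1 in 20 groups. Most were KO library 6. Its levels in scaled units were 1.60 for Slc39a8, 65.5 for Uqcrfs1, 3968 for Eef2, 58.6 for Elovl5, 1370 for Ctsd and 25.1 for Rab27b. They were 1935 for Tceal9, 9.04 for Psmb9, 54.8 for Hoxa7 and 17.3 for Oas1f. For genes outside the naming rule, they were 4.74 for Aqp3, 79.6 for Avpr2, 194.5 for Epb41l1, 439.8 for Fads1, 7.10 for Mtf1, 981.6 for Scd2, 72.0 for Tsnax and 107.4 for Wnk1.

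Other libraries stood apart for fewer genes. KO library 3 was at 0.157 for Limch1. KO library 4 was at 886.7 for Cbr2, 239.1 for Vps35 and 11.0 for Ddx60. WT library 5 was at 7.64 for Ddx60, 9.80 for Psmb9 and 0.498 for Ppfibp2, and WT library 4 at 7.23 for Aqp3. WT library 2 had fewer recovered reads (30.4 M) than the other WT vehicle libraries.

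The genotype difference under agonist departed from that under vehicle by the interaction test in 83 of the 185 genes named by rule. Among all 11557 tested rows the share was 41.1%. In the 83 genes, agonist minus vehicle ran from -5.40 for Cxcl1 to 1.11 for Trp53inp1 on the log2 scale. For 15 of these, chosen after their values were seen, it was -5.40 for Cxcl1, -4.68 for Fosl1, -3.76 for Ankrd1, -3.74 for Id3 and for Ccn1, -2.82 for Csn3, -2.67 for Ppp1r15a, -2.58 for Nr4a3, -2.09 for Gdf15, -1.70 for Fn1 and -0.43 for Gpr39. It was 0.36 for Rhcg, 0.57 for Oas1f, 0.64 for Lypd6b and 0.71 for Tspan15.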

How the results depend on the processing

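With a pseudocount of 2 the counts of rows at least 2-fold different fell to 79 higher and 92 lower, and with a mean of at least 5 scaled units to 81 and 72. The interaction was called in 7545 rows with the same total in every library and in 7851 with voom, against 4746. Other counts stayed within 1.5 times. Higher rows made up 49.99% of calls, 52.8% with quantile scaling and 54.2% with voom.

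Leaving out 1 vehicle library at a time gave 5149 to 6065 called rows, 2579 to 3051 higher and 2556 to 3014 lower. At least 2-fold rows numbered 143 to 154 higher and 149 to 161 lower. Calls under agonist numbered 7342 to 8109, calls shared in direction 3222 to 3933 and interaction calls 4452 to 5357. The highest counts came without KO library 6, except those of at least 2-fold rows, which were highest without WT library 3 (higher) and WT library 4 (lower).

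With a replicate block 5513 rows were called. Same-numbered libraries had correlations from -0.17 to 0.12 and 1 of 6 WT libraries correlated best with its own number, so the numbers were not taken as pairs.

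All 4225 alternative values of the 185 genes named by rule kept direction and call, which their choice by small adjusted p favours. Of 615 values of 27 genes named otherwise, 599 did. Ifit1, not called, ranged from -0.0118 (without KO library 6) to 0.227 when 1 library was left out, and so reversed. Of 2940 list values 64 moved, among them list medians relative to their chromosome, an alternative chosen after seeing the data.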
